A study of Danio rerio with 53 samples.

Results

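The nuclear-encoded genes of the mitochondrial respiratory chain and ATP synthase were followed through sorted lymphocytes of zebrafish thymus and marrow. Members were taken by name: rows of the count table whose symbol, ignoring case, began with nduf, cox4 to cox8, uqcr, atp5, sdha to sdhd, cyc1 or cycsb. Of 14424 rows, 104 met this rule. They comprised 36 subunits and 8 assembly factors of complex I, 4 subunits and 4 assembly factors of complex II, 9 subunits of complex III, 22 subunits of complex IV, cytochrome c (cycsb), and 18 subunits and 2 inhibitory factors of ATP synthase. No row of the table was a gene of the mitochondrial genome, so the chain's mitochondrially encoded subunits were not analysed here.

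Complex I takes electrons from NADH and complex II takes them from succinate. Both pass them through ubiquinone to complex III, from there through cytochrome c to complex IV, which reduces oxygen. Complexes I, III and IV pump protons, and ATP synthase lets them back through its rotating ring of c subunits while its catalytic head makes ATP. Lymphocytes at rest keep a low rate of biosynthesis, whereas dividing lymphoid precursors grow before each division, so the chain is commonly studied beside the cell cycle in these cells.

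The study's title concerns lymphocyte populations in thymic involution. The 53 libraries were prepared with QuantSeq 3′ FWD, which sequences the 3′ end of each polyadenylated transcript, from cells sorted by fluorescence. The fish carried a red reporter driven by the rag2 promoter (RFP) or the lck promoter (mCherry), active in lymphoid precursors and in T cells, and a green reporter (GFP) driven by cd79a or cd79b, which encode the signalling chains of the B cell receptor. The 4 lines are written here as rag2-cd79a, rag2-cd79b, lck-cd79a and lck-cd79b. From thymus came T Stage I (rag2-cd79a, 6 libraries from 2 sorted populations), T Stage II (both rag2 lines, 6), T Stage III and T Stage IV (lck-cd79a, 3 each) and thymic B (all 4 lines, 11). From marrow, which in zebrafish lies within the kidney, came early T-committed cells (both lck lines, 6), early B-committed cells (1 library of rag2-cd79a and 2 of rag2-cd79b), B Stage I and B Stage II (both rag2 lines, 6 each) and B Stage III (rag2-cd79b, 3). All libraries thus came from fish carrying both reporters, no ages or treatments are given in the labels used here, and a group is defined by transgene fluorescence and so by the promoters that drive it. Nothing states that libraries of a group came from separate animals, so p-values measure the spread between these libraries, which may be technical.

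Library totals ran from 7295854 to 18778603 counts (median 11912824), and 3804 to 11360 genes were detected per library. Early T-committed and thymic B libraries detected the fewest genes on average, 6401 ± 1664 (SD, n = 6) and 6601 ± 1462 (n = 11), against 9149 ± 1111 in T Stage II and 9750 ± 631 in B Stage I (n = 6 each). The T lineage markers summed to between 2268 and 3361 CPM (each count over its library total, in the usual CPM unit) on average in the 4 T stages, to 1211 CPM in early T-committed cells, and to 106 CPM in thymic B. The B lineage markers averaged 2105 ± 654 CPM in thymic B and at least 1678 CPM in B Stages I to III, but 757 CPM in early B-committed cells. Early T-committed and early B-committed libraries also held erythroid transcripts, 6985 ± 6095 and 4719 ± 4572 CPM. For 3 counts, the floor used for a group at 0, the level was 0.16 to 0.411 CPM, and such floors cover counting error only.

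Of the 104 members, 95 had a mean of at least 10 CPM, and 37 had a count in every library. Zeros made up 9.0% of member values against 45.1% over all genes, with up to 36 of the 104 genes at 0 in a thymic B library and 30 in an early T-committed one. The 104 genes together took from 0.917% to 2.46% of a library's counts, with a median of 1.56%. Because 3′ counts carry no length term, the levels below are compared between cell types for the same gene or the same sum.

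B Stage I had the highest mean of the summed level of all 104 genes, 21168 ± 1622 CPM (SD, n = 6), with libraries from 18881 to 22972 CPM around a median of 21218. Early B-committed cells followed with 15683, 21983 and 24590 CPM in their 3 libraries. T Stage II averaged 19416 ± 2478 CPM, with a lowest library of 15295, a median of 19788 and a highest of 22967. The 3 cell types at the top of the order therefore overlapped, and early B-committed cells had the widest spread. This order is that of CPM on library totals, and other scalings, given at the end, changed it in part.

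T Stage IV averaged 18524 ± 2857 CPM (n = 3) and T Stage I 16376 ± 1489 (n = 6). T Stage III averaged 15656 ± 564 CPM (n = 3) and B Stage III 15037 ± 1690 (n = 3). Early T-committed cells averaged 14130 ± 2245 CPM (n = 6). At the bottom stood B Stage II with 12825 ± 2527 CPM, from 10100 through a median of 12831 to 15902, and thymic B with 12610 ± 1639, from 9172 through 12823 to 14585. Every pair of neighbours in this order overlapped in range, whereas the libraries of B Stage I all lay above those of B Stage II and thymic B. In bulk libraries of sorted cells, fewer cells of a kind and less RNA per cell cannot be told apart.

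**Figure D1:**
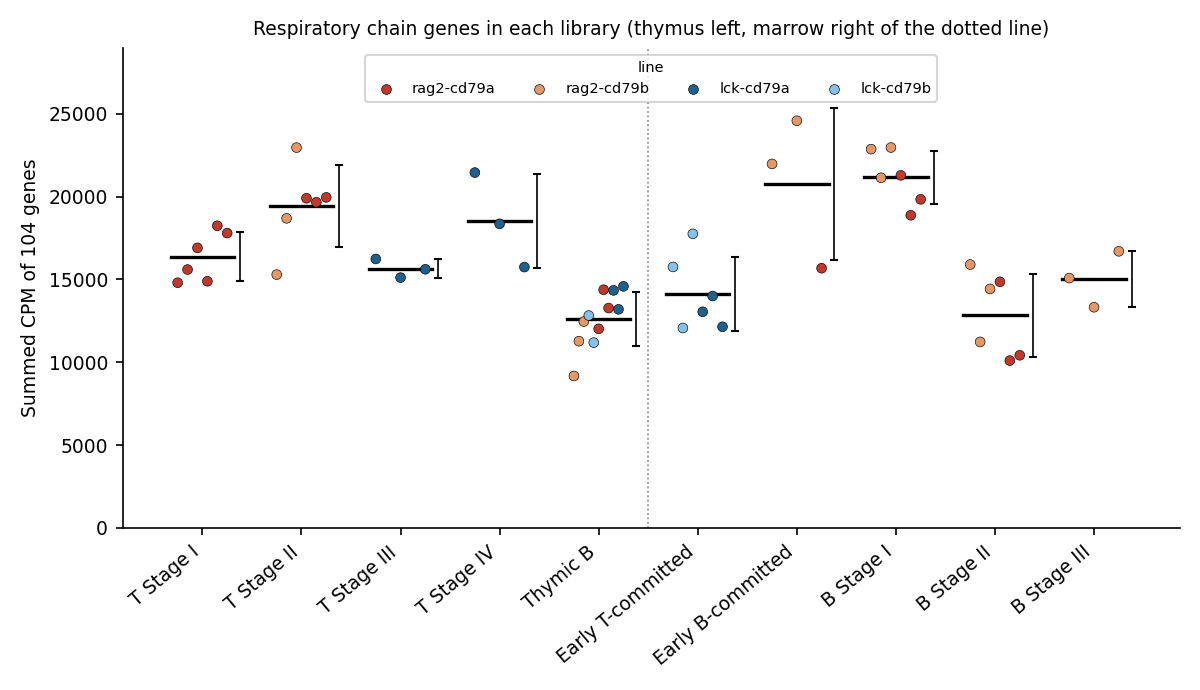
Summed CPM of the 104 genes (vertical axis) in each of 53 libraries, by cell type; points are libraries coloured by line, bars are means, whiskers are 1 SD, and the dotted line separates thymus from marrow. B Stage I libraries sit between 18881 and 22972 CPM, above the B Stage II libraries at 10100 to 15902 CPM and the thymic B libraries at 9172 to 14585 CPM.

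The complexes did not all follow the same order. ATP synthase subunits summed to 7824 ± 404 CPM in B Stage I, 7469 ± 1457 in early B-committed cells and 7434 ± 1092 in T Stage II, and were lowest in B Stage II, 4620 ± 916, and thymic B, 4516 ± 1048. Complex I subunits had the same 3 cell types at the top, with 4447 ± 434, 4081 ± 1106 and 3973 ± 515 CPM. At the bottom for complex I were B Stage II with 2625 ± 552 CPM, early T-committed cells with 2583 ± 200.1 and thymic B with 2530 ± 223.

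Complex III and complex IV had their highest means in early B-committed cells, 1541 ± 574 and 6696 ± 1744 CPM, close to those of B Stage I at 1404 ± 188 and 6598 ± 816. Thymic B was lowest for complex III at 650 ± 179 CPM, and B Stage II for complex IV at 3973 ± 1035 CPM. For the 4 subunits of complex II, early T-committed cells were highest at 268 ± 148 CPM and T Stage III lowest at 133 ± 55.0 CPM. Cytochrome c was highest in early B-committed cells, 213 ± 84.4 CPM, and T Stage IV, 204 ± 89.6 CPM, and lowest in B Stage III, 68 ± 52.2 CPM. The 12 assembly factors summed to only 82.8 ± 24.0 CPM in B Stage III and to 228 ± 36.8 in B Stage I, with thymic B at 210 ± 117.

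Counting genes rather than sums gave a similar picture. Early B-committed cells held the highest mean for 27 of the 104 genes, B Stage I for 21, T Stage IV for 15 and T Stage II for 13. B Stage II held the lowest mean for 23, early T-committed cells for 21, B Stage III for 15 and thymic B for 14. B Stage I held the lowest mean for 0 genes.

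In each complex, the row with the highest mean CPM is given over the cell types. NDUFA1, an accessory subunit of complex I, was 344 ± 72.1 CPM in B Stage I and 334 ± 97.2 in T Stage II, and 197 ± 18.2 in early T-committed cells, where it was lowest. SDHC, a membrane anchor of complex II, ranged from 38.1 ± 32.1 CPM in thymic B to 95.2 ± 55.7 in early T-committed cells. UQCRQ, a small subunit of complex III, ranged from 180 ± 75.3 CPM in thymic B to 422 ± 143 in B Stage I. For these 3 genes the cell types with neighbouring means overlapped.

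COX7C, a small subunit of complex IV, averaged 1487 ± 441 CPM in T Stage II, 1442 ± 464 in early B-committed cells and 1366 ± 429 in B Stage I, and 772 ± 315 in B Stage II. ATP5MG, subunit g of the membrane part of ATP synthase, averaged 1160 ± 147 CPM in B Stage I, with libraries from 943 to 1340, and 587 ± 145 in thymic B, with libraries from 332 to 787. ATP5MG in B Stage I was therefore above every thymic B library. The cytochrome c gene cycsb was 156 ± 60.7 CPM in T Stage II and 98.7 ± 59.5 in thymic B, where 1 library had no count.

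Cell types rich and poor in cell cycle transcripts were compared within the rag2 lines, T Stage II and B Stage I (12 libraries) against thymic B and B Stage II (12 libraries), so that each tissue contributed 1 cell type to each side. T Stage II and B Stage I carried the cell cycle transcripts: the summed cell cycle list was 3926 ± 749 and 3519 ± 632 CPM, against 577 ± 346 in B Stage II and 487 ± 382 in the thymic B libraries of these lines. They are called the high-cycling and low-cycling sides here. In marrow the sides are stages of 1 lineage, but thymic B is not a later stage of T Stage II: the 8 B lineage rows summed to 3.04 CPM in T Stage II and 2480 in thymic B, and in thymus 7 of 8 B rows were called lower and 8 of 8 T rows higher in T Stage II. In thymus, lineage and cycling therefore cannot be told apart. The summed CPM of the respiratory chain was higher on the high-cycling side in both tissues. In thymus alone, however, members of at least 10 CPM had a median log2 fold change of 0.54, near the 0.52 of all genes of that level. Over both tissues the chain's sum was 20292 ± 2197 CPM against 12461 ± 2122, a ratio of 1.63. Of the 12 low-cycling libraries 1 (15902 CPM) lay above the lowest high-cycling library (15295 CPM). With TMM scaling, the trimmed mean normalisation that edgeR uses to allow for composition, the ratio was 1.47 and 5 of the 12 low-cycling libraries reached the lowest high-cycling library, and with median-ratio size factors it was 1.39.

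Tested gene by gene with edgeR's quasi-likelihood test, 12 of 104 genes were higher in T Stage II and B Stage I and 0 were lower at an adjusted p of 0.05 over 14423 genes, where over all genes 4.76% were called higher and 3.15% lower. At an unadjusted p under 0.05, 41 members passed. The estimate was above 0 for 90 of the 104 members, or 86.5%, against 67.4% of all genes. Among genes of at least 10 CPM the members' median log2 fold change was 0.62 and that of all genes 0.31. The summed myeloid list was lower on the high-cycling side. It averaged 149 CPM in T Stage II against 1172 in thymic B of these lines without overlap, and 817 in B Stage I against 1347 in B Stage II with overlap. In this comparison 2 of 10 myeloid rows were called lower, and their part in these differences was not tested. Over all thymic B libraries SPI1 and MPEG1 had the highest means of the list, and both also led it in B Stages II and III. In thymic B lyz averaged 1.49 CPM, marco 1.05 and the MFAP4 rows at most 1.64. CEBPB averaged 165 CPM, with a highest library of 882, and nccrp1 55.9, with a highest of 180. The share of myeloid cells in thymic B was not tested, and the list's sum alone does not give it.

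ATP synthase supplied 5 of the 12 genes. The clearest was atp5mc1, which encodes subunit c, the unit repeated in the proton-driven ring. In T Stage II it was 382, 448 and 673 CPM in rag2-cd79b and 541, 647 and 649 CPM in rag2-cd79a. In thymic B of the same lines it was 0, 46.9 and 243 CPM, and 72.7, 189 and 225 CPM.

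In B Stage I the same gene was 403, 622 and 648 CPM in rag2-cd79b and 545, 545 and 547 CPM in rag2-cd79a, and in B Stage II 160, 214 and 339 CPM, and 97.1, 176 and 356 CPM. No low-cycling library reached the lowest high-cycling library, and atp5mc1 was the only 1 of the 104 genes without overlap between the 12 and the 12, against 0.513% of all genes. It rose with a log2 fold change of 1.54 ± 0.28 (SE) and an adjusted p of 1.13e-05. The call held in all 24 fits without 1 library and within each line.

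The other ATP synthase genes called were ATP5F1B, the catalytic beta subunit, atp5mj and atp5md, small subunits of the membrane part, and ATP5MG. ATP5F1B was 616 ± 140 CPM (from 336 through 641 to 810) against 333 ± 157 (from 11.1 through 312 to 528), a log2 fold change of 0.85 ± 0.24 with an adjusted p of 0.00836. For atp5mj the level was 655 ± 149 CPM against 308 ± 138, a log2 fold change of 0.97 ± 0.24 (adjusted p = 0.002), and the groups overlapped. In ATP5MG the high-cycling libraries ran from 800 through 1085 to 1340 CPM and the low-cycling ones from 358 through 645 to 866, a log2 fold change of 0.65 ± 0.21 (adjusted p = 0.0331). Of the 18 subunits 17 had an estimate above 0, with a median log2 fold change of 0.65. The inhibitory factors, which block ATP hydrolysis, did not pass: atp5if1a had an estimate of 0.77 ± 0.36 and atp5if1b of 0.00 ± 0.30 (adjusted p = 0.21 and 1).

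Of the 36 complex I subunits, 3 rose and 35 had an estimate above 0 (median 0.59). NDUFA10, an accessory subunit of the membrane arm, was 74.0 ± 34.3 CPM against 24.6 ± 23.0, a log2 fold change of 2.43 ± 0.56 (adjusted p = 0.000731). NDUFS8, which holds iron-sulphur clusters near the ubiquinone site, was 191 ± 75.6 CPM, from 98.0 through 183 to 330, against 68.7 ± 59.6, from 0 through 49.0 to 173 (1.38 ± 0.38, adjusted p = 0.00749). NDUFA6, another accessory subunit, was 276 ± 106 CPM against 125 ± 112 (1.15 ± 0.35, adjusted p = 0.0256). The groups overlapped in all 3. NDUFA1 did not pass, at 0.29 ± 0.28 (adjusted p = 0.815). Of the 8 complex I assembly factors, which build the complex and do not remain in it, 4 had an estimate above 0 and the median was 0.00.

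Complex III contributed uqcrc2a, a core protein of the matrix side, with 100 ± 30.0 CPM against 29.9 ± 42.5, a log2 fold change of 1.94 ± 0.49 (adjusted p = 0.00285). Its low-cycling libraries ran from 0 through 16.0 to 145 CPM, so the groups overlapped above the lowest high-cycling library at 44.1 CPM. All 9 subunits of complex III had an estimate above 0, with a median of 0.79. UQCRQ was 390 ± 131 CPM against 231 ± 86.0 (0.62 ± 0.27) and CYC1, cytochrome c1, had 0.79 ± 0.35, and neither passed (adjusted p = 0.179 and 0.185). The soluble cytochrome c, cycsb, had 0.80 ± 0.34 (adjusted p = 0.15).

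Complex IV contributed cox6c, COX7C and 1 of the rows named COX5B. The small subunit cox6c was 784 ± 126 CPM, from 549 through 813 to 982, against 374 ± 110, from 245 through 346 to 551, and rose by a log2 fold change of 0.91 ± 0.23 (adjusted p = 0.00269). The highest low-cycling library thus barely passed the lowest high-cycling one. COX7C rose by 0.65 ± 0.21 (adjusted p = 0.0281). The COX5B row ENSDARG00000068738 was 14.4 ± 23.5 CPM against 0.501 ± 1.15, with a highest low-cycling library of 3.95 CPM, and its estimate of 6.37 ± 2.07 (adjusted p = 0.0326) rests on a group near 0. Of 22 subunits 18 had an estimate above 0 (median 0.58). COX4I1, the main form of subunit 4, was 384 ± 37.3 CPM against 378 ± 136, with an estimate of -0.08 ± 0.24.

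The 4 subunits of complex II had estimates of both signs. SDHA, the flavoprotein that oxidises succinate, had an estimate of -0.83 ± 0.48 and SDHB, the iron-sulphur subunit, of -0.15 ± 0.48. The membrane anchors SDHC and SDHD had 0.86 ± 0.43 and 0.74 ± 0.52. None of the 4 was called (adjusted p = 0.267 to 1), and their difference from the other complexes was not tested.

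Of these 12 genes, 2 were also called within rag2-cd79a alone (atp5mc1 and uqcrc2a) and 5 within rag2-cd79b alone (atp5mc1, NDUFA10, ATP5F1B, atp5mj and cox6c). These contrasts set 6 against 6 libraries and were taken from the fit of all 53 libraries. Without thymic B replicate 6 of rag2-cd79b the number called rose from 12 to 24. With a trended dispersion 8 of the 12 were called, without NDUFA6, NDUFS8, atp5md and uqcrc2a, and without the 4 libraries above 1000 CPM of kidney tubule transcripts 11 were, without the COX5B row. COX7C and ATP5MG did not pass with median-ratio size factors (adjusted p = 0.0545 and 0.072, in ranges over all alternatives of 0.000888 to 0.322 and of 0.00156 to 0.387).

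Thymus and marrow share no library, so each gene's difference can be read in both. Of the 104 genes, 73 (70.2%) had a higher estimate in T Stage II than in thymic B and also in B Stage I than in B Stage II. Among the members of at least 10 CPM it was 71 of 95 (74.7%), and among all genes of that level 2410 of 6603 (36.5%). In the opposite direction in both tissues went 6 members (5.77%) against 1532 genes (23.2%). Whether the effect differed between the tissues was tested as an interaction, and 0 members were called by edgeR (0.804% of all genes were called in 1 direction and 1.28% in the other). At an unadjusted p under 0.05 there were 8 members, and DESeq2 called 11 and limma voom 2. The smallest p values were those of the assembly factor NDUFAF6 (-2.92, adjusted p = 0.142) and of UQCRB, a complex III subunit (10.42, adjusted p = 0.18).

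**Figure D2:**
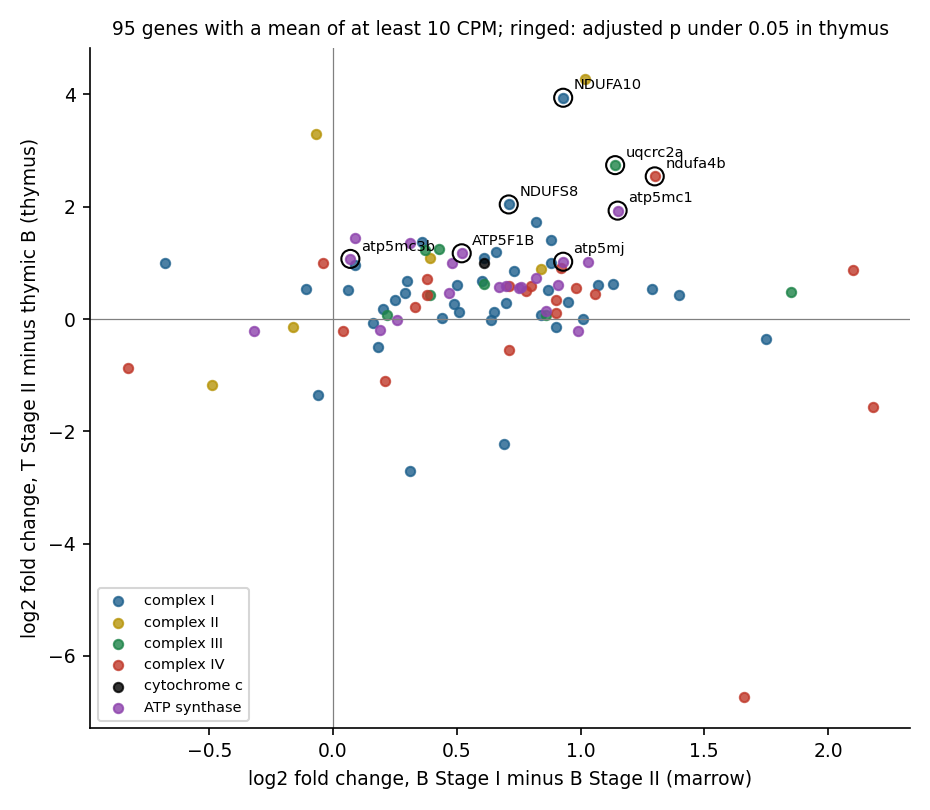
Each point is 1 of the 95 genes of at least 10 CPM, with the log2 fold change of B Stage I over B Stage II in marrow on the horizontal axis and of T Stage II over thymic B in thymus on the vertical axis, coloured by complex; rings mark the 8 genes with an adjusted p under 0.05 in thymus. Most points, 71 of 95, lie at the upper right, above 0 on both axes.

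In thymus, T Stage II was compared with thymic B (6 libraries each, rag2 lines). The sum of the chain's genes was 19416 ± 2478 CPM against 12096 ± 1788, a ratio of 1.61 without overlap. It was 1.50 in rag2-cd79a (19846 ± 156 CPM against 13225 ± 1183, n = 3 each) and 1.73 in rag2-cd79b (18986 ± 3844 against 10968 ± 1665, n = 3 each). With TMM scaling the ratio was 1.42, with median-ratio size factors 1.27, and in each 2 of the 6 thymic B libraries reached the lowest T Stage II library. By complex the ratios were 1.79 for ATP synthase, 1.51 for complex I and 1.85 for complex III, all without overlap, and 1.50 for complex IV, 1.15 for complex II and 2.29 for cytochrome c, all with overlap. The assembly factors had a ratio of 0.611, with overlap.

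Gene by gene, the estimate was above 0 for 80 of the 104 members (76.9%) against 63.6% of all genes. Among genes of at least 10 CPM the members' median log2 fold change was 0.54 and that of all genes 0.52, so the members' median rise was near that of other genes. Here 8 genes (7.69%) rose in T Stage II and 0 fell, where a near share of all genes, 6.32%, was called higher and 3.66% lower. These were atp5mc1, atp5mc3b, ATP5F1B and atp5mj of ATP synthase, NDUFA10 and NDUFS8 of complex I, uqcrc2a of complex III, and ndufa4b, whose human counterpart NDUFA4 was first placed in complex I and is now counted with complex IV. For atp5mc1 the log2 fold change was 1.93 ± 0.41 (adjusted p = 0.000177). NDUFA10 was 69.2 ± 34.7 CPM against 10.0 ± 10.6 (3.94 ± 0.92, adjusted p = 0.000829). In uqcrc2a T Stage II had 116 ± 19.8 CPM and thymic B 27.1 ± 58 (2.74 ± 0.74, adjusted p = 0.00629).

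The other subunit c gene, atp5mc3b, was 719 ± 63.9 CPM in T Stage II, from 660 through 699 to 822, and 338 ± 151 in thymic B, from 168 through 344 to 496. Its groups did not overlap, and it rose by 1.07 ± 0.32 (adjusted p = 0.0163). NDUFS8 was 196 ± 79.2 CPM against 41.6 ± 29.9 (2.04 ± 0.56, adjusted p = 0.00657), and ATP5F1B was 628 ± 127 CPM against 284 ± 172 (1.17 ± 0.34, adjusted p = 0.0107). For ndufa4b the levels were 45.6 ± 22.3 CPM and 6.67 ± 8.86 (2.54 ± 0.89, adjusted p = 0.0467). Of 12 fits without 1 library ndufa4b was called in only 3 and atp5mj in 5, and the rest of the 8 genes in at least 11. Of the 104 genes 8 (7.69%) did not overlap between the groups, near the 5.94% of all genes.

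Within single lines fewer of the 8 genes were called. A difference between the lines in this contrast of T Stage II with thymic B was called for 0 members by edgeR, with 10 at an unadjusted p under 0.05. The gene uqcrc2a was also called within rag2-cd79a, and atp5mc1, NDUFA10, ATP5F1B and atp5mc3b within rag2-cd79b, with 3 against 3 libraries. In rag2-cd79b the thymic B libraries had 36, 23 and 21 members at 0, against 1, 10 and 7 in T Stage II. In rag2-cd79a it was 17, 11 and 9 against 9, 6 and 4. The same libraries enter the comparison over both tissues, and the part of these zeros in the calls was not tested. With median-ratio size factors 5 of the 8 were called, and without thymic B replicate 6 of rag2-cd79b the number called was 19.

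In marrow, B Stage I was compared with B Stage II (6 libraries each, rag2 lines). The sum was 21168 ± 1622 CPM against 12825 ± 2527, a ratio of 1.65 without overlap, and it was 1.70 in rag2-cd79a and 1.61 in rag2-cd79b. ATP synthase and complex I both had a ratio of 1.69 and complex III of 1.58, without overlap. Complex IV had 1.66, complex II 1.14 and cytochrome c 1.61, with overlap. With TMM scaling the ratio of the sums was 1.51 and 1 of the 6 B Stage II libraries reached the lowest B Stage I library.

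Gene by gene, the estimate was above 0 for 91 of the 104 members (87.5%) against 52.6% of all genes, and the members' median was 0.65 against 0.10. At the adjusted threshold edgeR called 0 members, where 0.964% of all genes were called higher and 0.153% lower. At an unadjusted p under 0.05 there were 21 members, and DESeq2 and limma voom called 5 each. NDUFA12, an accessory subunit of complex I, had the smallest p: it was 124 ± 43.7 CPM in B Stage I, from 71.0 to 191, and 35.0 ± 19.7 in B Stage II, from 5.03 to 58.1. Those ranges did not overlap, the estimate was 1.75 ± 0.58 and the adjusted p was 0.126. Of the members 6 did not overlap, all higher in B Stage I, against 2.16% of all genes. The kidney tubule list, a marker of tissue around the marrow, was also called higher for 6 of its 16 rows in B Stage I, and its part in these values was not tested.

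**Figure D3:**
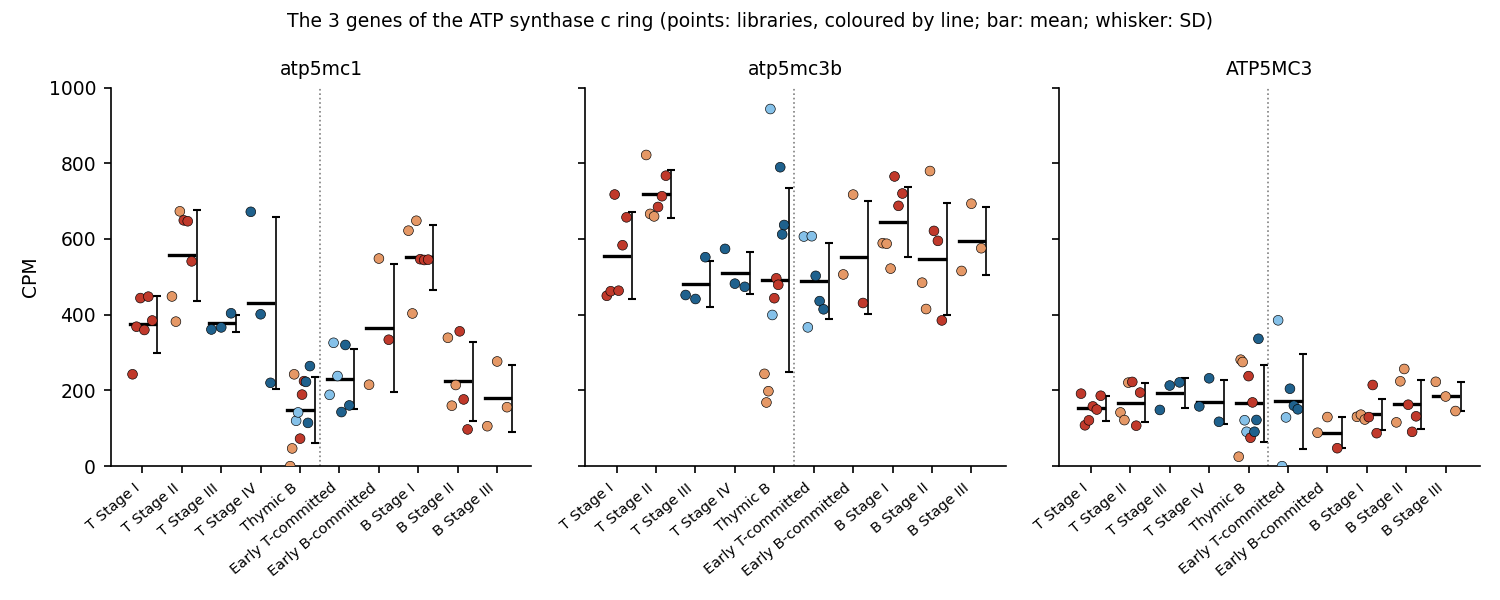
CPM of the 3 subunit c genes, atp5mc1, atp5mc3b and ATP5MC3, in each library by cell type (vertical axes); dark red points are rag2-cd79a, orange rag2-cd79b, dark blue lck-cd79a and light blue lck-cd79b. For atp5mc1 T Stage II runs from 382 to 673 CPM and B Stage I from 403 to 648, above all B Stage II libraries at 97.1 to 356 CPM.

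B Stage III was read in rag2-cd79b. B Stage I had 22330 ± 1027 CPM and B Stage III 15037 ± 1690 (n = 3 each), a ratio of 1.49 without overlap, and B Stage II had 0.921 times the level of B Stage III with overlap. Against B Stage III, 36 of the 104 genes did not overlap with B Stage I, 34 of them higher in B Stage I, where 13.3% of all genes did not overlap. For atp5mc1 B Stage I had 403, 622 and 648 CPM and B Stage III 106, 156 and 277 CPM, which did not overlap, and the estimate was 1.48 ± 0.56 (adjusted p = 0.268). By edgeR 0 members were called in this comparison (0.499% of all genes higher, 0.132% lower), with 9 at an unadjusted p under 0.05, 3 by DESeq2 and 1 by limma voom. Between B Stage II and B Stage III edgeR also called 0 members (0% of all genes higher, 0.0277% lower), with 10 at an unadjusted p under 0.05, 5 by DESeq2 and 0 by limma voom. The smallest p values there were those of COX6A1 (ENSDARG00000054588), with an estimate of -4.77, and ndufa4b, with -5.49 (adjusted p = 0.321 and 0.382). Without 1 library the estimate of COX6A1 ran from -6.09 to -4.3, but that of ndufa4b changed sign, from -9.55 to 6.7.

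B Stage I and early B-committed cells had like sums, a ratio of 1.02 with overlap, but differed in 2 genes, where 0.582% of all genes were called higher and 0.471% lower. NDUFAF6, a complex I assembly factor, was 81.9 ± 17.3 CPM in B Stage I, from 62.1 to 100.2, and 0, 0 and 9.83 CPM in early B-committed cells (8.04 ± 2.17, adjusted p = 0.0283). COX4I2, an alternative form of subunit 4 of complex IV, was 39.5, 74.8 and 96.9 CPM in early B-committed cells and 4.54 ± 5.10 in B Stage I, at most 12.7, and fell by 4.17 ± 1.08 (adjusted p = 0.0207). Both groups of ranges were separate. The estimate gives the 1 early B-committed library of rag2-cd79a the weight of a line, and the contrast within that line assumes that this library varies like the other groups. Erythroid markers averaged 1106 CPM in B Stage I and 4719 in early B-committed cells, and their part was not tested. Without the rag2-cd79b early B-committed replicate 7, or without the libraries rich in kidney tubule transcripts, 0 of the 2 were called.

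Among the thymic T stages edgeR called no member. In rag2-cd79a T Stage II had 19668 to 19960 CPM and T Stage I 14803 to 18245, a ratio of 1.21 without overlap, with cell cycle sums of 3926 ± 749 CPM in T Stage II over both lines and 2225 ± 1372 in T Stage I. By edgeR 0 members and 0% of all genes were called in either direction, 4 members had an unadjusted p under 0.05, and DESeq2 called 2 and limma voom 0. The smallest p belonged to ndufv3, an accessory subunit of complex I, with 196 ± 130 CPM against 64.5 ± 53.1, and to ATP5PF, a stalk subunit of ATP synthase, with 460 against 257 CPM (adjusted p = 0.997 for both).

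In lck-cd79a T Stage IV had 1.18 times the sum of T Stage III, with overlap. For T Stages I and II against III and IV, the former were taken from rag2-cd79a and the latter from lck-cd79a. The difference between thymic B of these lines was subtracted, and stage and line cannot be fully told apart there. Neither T Stage III against T Stage IV (0.0763% of all genes called higher, 0% lower) nor T Stages I and II against III and IV (0.0208% and 0.0139%) gave a call among the members by edgeR. At an unadjusted p under 0.05 there were 3 members in each, and DESeq2 called 3 and 4 and limma voom 0 and 1. SDHD, a membrane anchor of complex II, was 6.44 ± 2.57 CPM in T Stage III and 44.5 ± 39.1 in T Stage IV (-2.67 ± 1.16, adjusted p = 0.629). The lck-cd79a thymic B libraries, at 14041 ± 741 CPM, lay below all T Stage III libraries (15656 ± 564, ratio 1.12) and all T Stage IV libraries (ratio 1.32).

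Thymus was set against marrow with the same 24 libraries of the rag2 lines, T Stage II and thymic B against B Stage I and B Stage II. The thymus side held T and B cells and the marrow side B lineage cells only, so tissue and lineage cannot be fully told apart. In thymus 7 of 8 B lineage rows were called lower and 5 of 8 T lineage rows higher. Of other markers 4 of 7 erythroid, 3 of 10 myeloid and 1 of 7 epithelium rows were called lower, and their part was not tested. Members as a whole were lower in thymus by no more than other genes of their level: the median log2 fold change was -0.32, and -0.31 over all genes of at least 10 CPM. By edgeR 0 rose and 6 fell in thymus, where 0.998% of all genes were called higher and 3.55% lower. These 6 were cox8b, COX6A1 (ENSDARG00000054588) and cox4i1l of complex IV, UQCRH of complex III, and NDUFA6 and NDUFA10 of complex I.

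The subunit 8 gene cox8b was 7.13 ± 12.3 CPM in the 12 thymus libraries, from 0 through 0.939 to 35.4, and 70.1 ± 37.2 in the 12 marrow libraries, from 7.22 through 82.4 to 119. It fell by 4.81 ± 0.78 on the log2 scale (adjusted p = 3.39e-07), and only the highest thymus libraries reached the lowest marrow ones. UQCRH, the hinge protein of complex III beside the cytochrome c site, was 77.1 ± 36.1 CPM, from 0 through 78.6 to 149, against 198 ± 53.0, from 69.0 through 200.2 to 266 (-1.48 ± 0.34, adjusted p = 0.00106). COX6A1 (ENSDARG00000054588), 1 of a pair of rows with that symbol, was 1.79 ± 4.53 CPM with a median of 0 in thymus, against 34.2 ± 33.2 with a median of 27.9 in marrow (-6.09 ± 1.45, adjusted p = 0.00185). The subunit 4 gene cox4i1l was 1.85 ± 4.62 CPM against 14.7 ± 14.7 (-6.17 ± 1.88, adjusted p = 0.0297). NDUFA6 had -1.15 ± 0.35 and NDUFA10 -1.81 ± 0.58 (adjusted p = 0.0383 and 0.0481). Both were near the threshold: of 24 fits without 1 library NDUFA6 was called in 10 and NDUFA10 in 7. Neither was called within rag2-cd79a, within rag2-cd79b or with a trended dispersion (for NDUFA6 adjusted p = 0.757, 0.0517 and 0.136, in a range over all alternatives from 0.000847). The number called was 10 without thymic B replicate 5 of rag2-cd79b and 3 without any 1 of T Stage II replicates 2 and 24 and B Stage II replicates 42 and 43.

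Over all 53 libraries, cox8b had a median of 64.8 CPM in marrow, where 1 of 24 libraries was at 0, and of 0.589 in thymus, where 10 of 29 were at 0. COX6A1 (ENSDARG00000054588) had a median of 37.8 CPM in marrow with 2 at 0, and of 0 in thymus with 17 at 0. For cox4i1l the thymus had 22 of 29 libraries at 0 and the marrow 7 of 24. For ndufa4b the median was 33.0 CPM in thymus and 2.72 in marrow, with ranges of 0 to 132 and 0 to 140 CPM.

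Zebrafish marrow is taken from the kidney, and kidney tubule transcripts differed with tissue as well. The 16 rows of that list summed to 71.5 to 2983 CPM in marrow (median 406) and to 15.7 to 203 CPM in thymus (median 63.3), and 5 of the 16 were called lower in thymus. The tubule gene fxyd2 had no count in 27 of 29 thymus libraries and a median of 105 CPM in marrow. CDH17 was at 0 in all 29 thymus libraries and had a median of 11.5 CPM in marrow. SLC13A1 and clcnk were at 0 in all 29 thymus libraries too, but their median in marrow was also 0. Other rows of the list were not lower in thymus: SLC20A1 (ENSDARG00000010641) had medians of 50.2 CPM in thymus and 49.8 in marrow, and AQP3 of 5.69 and 0. Without the 4 libraries above 1000 CPM of this list, cox8b had an estimate of -4.82 (adjusted p = 2.23e-06) and COX6A1 of -5.69 (adjusted p = 0.0172), whereas cox4i1l and NDUFA10 were not called (adjusted p = 0.198 and 0.0674). Over all alternatives the adjusted p ran from 1.85e-09 to 0.00443 for cox8b, from 1.17e-13 to 0.2 for COX6A1, from 8.04e-13 to 1 for cox4i1l and from 0.000764 to 0.796 for NDUFA10. Within rag2-cd79b COX6A1 was not called (adjusted p = 0.116), and within rag2-cd79a UQCRH was not (adjusted p = 0.211, in a range from 6.56e-05).

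**Figure D4:**
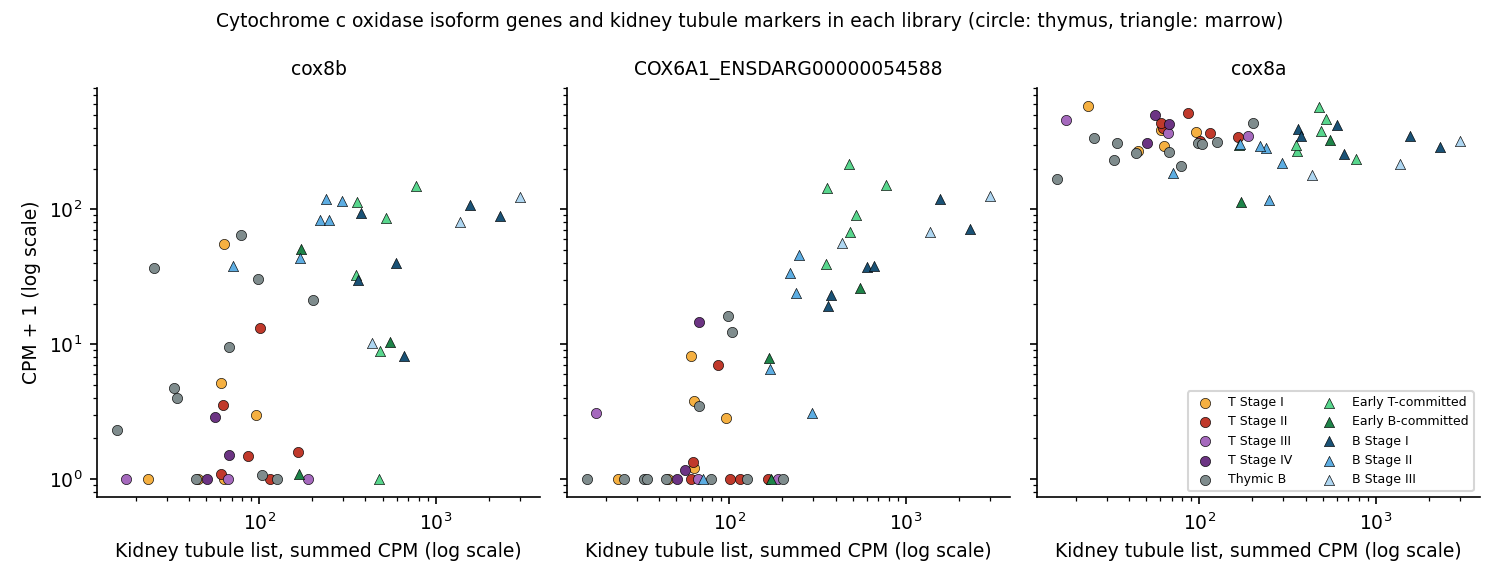
CPM plus 1 of cox8b, COX6A1 (ENSDARG00000054588) and cox8a (vertical axes, log scale) against the summed CPM of the kidney tubule list (horizontal axes, log scale) in each library; circles are thymus and triangles marrow. Marrow libraries span 71.5 to 2983 CPM of the list and have a median cox8b of 64.8 CPM, while thymus libraries lie at 15.7 to 203 CPM with a median of 0.589.

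Single cell types were also compared between tissues. T Stage II against B Stage I gave 5 members lower and 0 higher in T Stage II (2.43% of all genes higher, 3.4% lower), and these were COX6A1 (ENSDARG00000054588), cox8b, cox4i1l, NDUFAF6 and UQCRH. UQCRH was 62.8 to 106 CPM in T Stage II and 190 to 266 in B Stage I, without overlap, and fell by 1.55 ± 0.48 (adjusted p = 0.0265). NDUFAF6 was 15.0 ± 21.7 CPM in T Stage II against 81.9 ± 17.3 (-2.83 ± 0.77, adjusted p = 0.0077). Their sums had a ratio of 0.917, with overlap. Without the kidney-rich libraries COX6A1 and cox8b of these 5 were called, and within rag2-cd79b 0 were. These cells differ in lineage as well as in tissue: 8 of 8 T rows were called higher and 7 of 8 B rows lower in T Stage II. Of other markers 8 of 16 kidney tubule, 4 of 10 myeloid, 3 of 7 erythroid and 1 of 7 epithelium rows were called lower. Their part in these values was not tested.

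Thymic B cells and marrow B Stage II had like sums (ratio 0.943, with overlap) and differed in 1 gene, where 0.367% of all genes were called higher and 0.957% lower. This was cox8b, at 11.6 ± 16.2 CPM in thymic B, from 0 through 2.51 to 35.4, and 79.6 ± 34.4 in B Stage II, from 37.2 through 82.4 to 119. The ranges did not overlap and cox8b fell by 4.78 ± 1.13 (adjusted p = 0.0102). Within rag2-cd79a alone it was not called, at -1.98 with an adjusted p of 0.53 (over all alternatives from 0.000925).

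Against B Stage III in rag2-cd79b, thymic B had the lower sum, 10968 ± 1665 CPM against 15037 ± 1690 (ratio 0.729, without overlap). These thymic B libraries had 36, 23 and 21 members at 0, against 14, 10 and 8 in B Stage III. Of the members 17 did not overlap, against 8.21% of all genes. By edgeR 5 members fell and 1 rose, where 0.77% of all genes were called lower and 0.305% higher. Of ATP synthase, ATP5PO, the stalk protein that holds the catalytic head, was 51.4 ± 47.2 CPM against 250 ± 17.9 (-2.50 ± 0.63, adjusted p = 0.0233). ATP5F1B was 152 ± 126 CPM against 510 ± 93.6 (-2.04 ± 0.49, adjusted p = 0.0168) and atp5mc3b 203 ± 38.1 against 595 ± 90.3 (-1.86 ± 0.47, adjusted p = 0.0233). COX6A1 (ENSDARG00000054588) had no count in the 3 thymic B libraries and 82.7 ± 37.4 CPM in B Stage III, at least 224-fold lower on a floor of 3 counts per library (adjusted p = 0.0152), and cox8b fell too (adjusted p = 0.0264). SDHAF3, an assembly factor of complex II, rose: it was 0, 58.8 and 108 CPM in thymic B and had no count in B Stage III (at least 215-fold, adjusted p = 0.048). Of these 6, 0 were called without the B Stage III replicates 17 and 18, the kidney-rich libraries, which leaves 1 B Stage III library. With only these groups in the fit 0 members were called as well.

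Early T-committed cells of marrow were set against thymic cells of the lck lines. T Stage III, at 15656 ± 564 CPM, lay above early T-committed cells of lck-cd79a at 13064 ± 929 (ratio 1.20, without overlap), and 15 members did not overlap, 13 of them higher in T Stage III, against 9.66% of all genes. Yet the calls were 2 lower and 0 higher (0.444% of all genes higher, 0.596% lower). These were COX6A1 (ENSDARG00000054588), 0.686 against 65.0 ± 25.7 CPM (-6.41 ± 1.63, adjusted p = 0.017), and cox8b, at 0 in 3 libraries against 7.90, 31.4 and 85.4 CPM (at least 188-fold lower, adjusted p = 0.0285). Leaving out T Stage III replicate 45, 46 or 47, or early T-committed replicate 56, left 0 of the 2 called. Markers of other cells differed here as well: erythroid markers were 60.6 to 103 CPM in T Stage III and 1279 to 5324 in early T-committed cells, and 3 of 7 erythroid, 3 of 16 kidney tubule and 2 of 10 myeloid rows were called lower and 4 of 14 skeletal muscle rows higher in T Stage III. Their part in these values was not tested.

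Thymic B differed from early T-committed cells in 4 genes, 3 higher and 1 lower (3.52% of all genes higher, 2.39% lower), with like sums (ratio 1.07, with overlap). NDUFAF6 was 82.8 ± 46.0 CPM in thymic B, from 15.7 through 77.9 to 141, and 4.50 ± 6.07 in early T-committed cells, at most 14.9 (4.93 ± 1.00, adjusted p = 0.000122). The ranges did not overlap. NDUFA10 was 79.7 ± 26.7 CPM against 27.2 ± 33.9 (3.97 ± 0.98, adjusted p = 0.00297). COX6A1 (ENSDARG00000054588) was 2.76 CPM against 117 ± 65.0 (-8.60 ± 1.75, adjusted p = 0.000135). Within lck-cd79a 0 of the 4 were called, and within lck-cd79b all 4 were called. The cells are of different lineages, and beside 7 of 8 B rows higher and 6 of 8 T rows lower in thymic B, 4 of 7 erythroid, 4 of 10 myeloid and 3 of 16 kidney tubule rows were called lower, and 4 of 14 skeletal muscle, 3 of 7 epithelium, 2 of 10 myeloid and 1 of 16 kidney tubule rows higher, with 1 epithelium row lower. Their part in these values was not tested.

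Several subunits are encoded by more than 1 gene, and the share of each form varied with cell type. Of the counts of the 3 subunit c genes, atp5mc1 took 41.4 ± 5.65% in B Stage I and 38.3 ± 5.49% in T Stage II, and 23.5 ± 8.24% in B Stage II and 17.4 ± 9.70% in thymic B. B Stage III had 18.1 ± 5.74% and T Stage III 35.9 ± 1.62%, and the means of the remaining cell types lay from 26.9% in early T-committed cells to 37% in T Stage IV. The share of atp5mc3b ran from 45.7% in T Stage III to 62.3% in B Stage III, and that of ATP5MC3 from 8.68% to 21.8%. The shares of atp5mc1 in B Stage I and B Stage II therefore differed by more than 1 SD of either.

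Of the subunit 8 pair, cox8b took 26.0 ± 11.0% in B Stage II, 14.3 ± 9.28% in B Stage I and 15.8% in early T-committed cells, and 4.75 ± 7.01% in thymic B, 0.761% in T Stage II and 0% in T Stage III. The remainder was cox8a. COX6A1 (ENSDARG00000054588) took 49.6 ± 39.7% of the COX6A1 pair in early T-committed cells, 29.2 ± 7.36% in B Stage III and 13.1 ± 10.9% in B Stage I, and at most 1.39% in any thymic cell type. COX4I1 held at least 93% of the subunit 4 counts everywhere except in early B-committed cells, with 80.0 ± 13.8%, where COX4I2 took 17.1 ± 9.86%. Of the NDUFA4 pair ndufa4b took 25.8 ± 3.06% in T Stage IV and 12.1% in T Stage II, against 2.22% in B Stage I. Paralogues that share 3′ sequence could exchange counts, so these shares are uncertain to that extent.

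The 104 genes moved together only in part. Over the 53 libraries, the correlation of each gene with the sum of the other members had a median of 0.379 and ran from -0.111 for NDUFAF6 to 0.839 for cox6c, with 5 below 0. Next to cox6c came atp5mj with 0.77 and COX7C with 0.718, and cox8b had -0.0821. The median was 0.476 for ATP synthase, 0.422 for complex III, 0.325 for complex I, 0.294 for complex IV and 0.183 for complex II. These are descriptions over libraries that share lines and depths, and no test was made. Outside the members, the genes whose mean over the 19 groups followed the sum most closely were MCM4, a replicative helicase subunit (0.92), pagr1 (0.907) and PSMB3, a proteasome subunit (0.885).

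Other gene lists were read in the same comparison of T Stage II and B Stage I with thymic B and B Stage II. Of 23 cell cycle rows 20 rose and 0 fell. The sides were set out above as rich and poor in these same transcripts, so such calls restate the grouping. PCNA, the sliding clamp of replication, was 946 against 112 CPM (2.91 ± 0.28, adjusted p = 7.21e-19). In mitochondria, 3 of 75 rows of mitochondrial ribosomal proteins rose (MRPS24, MRPL45 and MRPS25), 2 of 19 rows of pyruvate dehydrogenase and the TCA cycle rose, and 1 of 33 assembly factors outside the naming rule rose (COX19). Over all genes 4.76% were called higher, so the counts for ribosomal proteins and assembly factors were near or below that background. The TCA cycle genes were IDH2, 133 against 45.6 CPM (1.44 ± 0.39, adjusted p = 0.00653), and DLD, 69.7 against 31.3 CPM (3.52 ± 0.97, adjusted p = 0.00694). Of 8 carriers of adenine nucleotides and phosphate and porins, 0 were called. The median log2 fold change was 0.76 for the ribosomal proteins (61 of 75 above 0) and 1.11 for the assembly factors (29 of 33). It was 0.72 for the TCA list (16 of 19), 0.31 for the carriers and porins (5 of 8) and 0.62 for the chain (90 of 104). Over all genes tested it was 0.79, so a positive median was not particular to the chain.

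Glycolysis was read beside the chain. Of 25 rows 0 rose and 1 fell: LDHA, which makes lactate, was 76.8 CPM against 169 (-1.33 ± 0.35, adjusted p = 0.00395). The glycolysis sum had a ratio of 0.959 for T Stage II over thymic B and 0.853 for B Stage I over B Stage II, both with overlap, while the TCA cycle sum had 1.53 without overlap and 1.61 with overlap. Early T-committed cells had the highest glycolysis sum, 2955 ± 675 CPM, beside a chain sum of 14130 ± 2245. Of 15 rows of regulators of mitochondrial genes 3 rose. NRF1, a transcription factor of nuclear respiratory chain genes, was 52.9 against 15.1 CPM (1.79 ± 0.56, adjusted p = 0.0245), and rows of YY1 and MYC rose too (2.56 and 4.51 on the log2 scale). By tissue, 5 of the 15 rows were called higher in T Stage II than in thymic B, where lineage and cycling cannot be told apart. Between B Stage I and B Stage II 0 were called higher and 1 lower, with list sums of 407 ± 101 and 418 ± 153 CPM. The interaction called 2 of the 15. The difference between the lists was not tested.

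**Figure D5:**
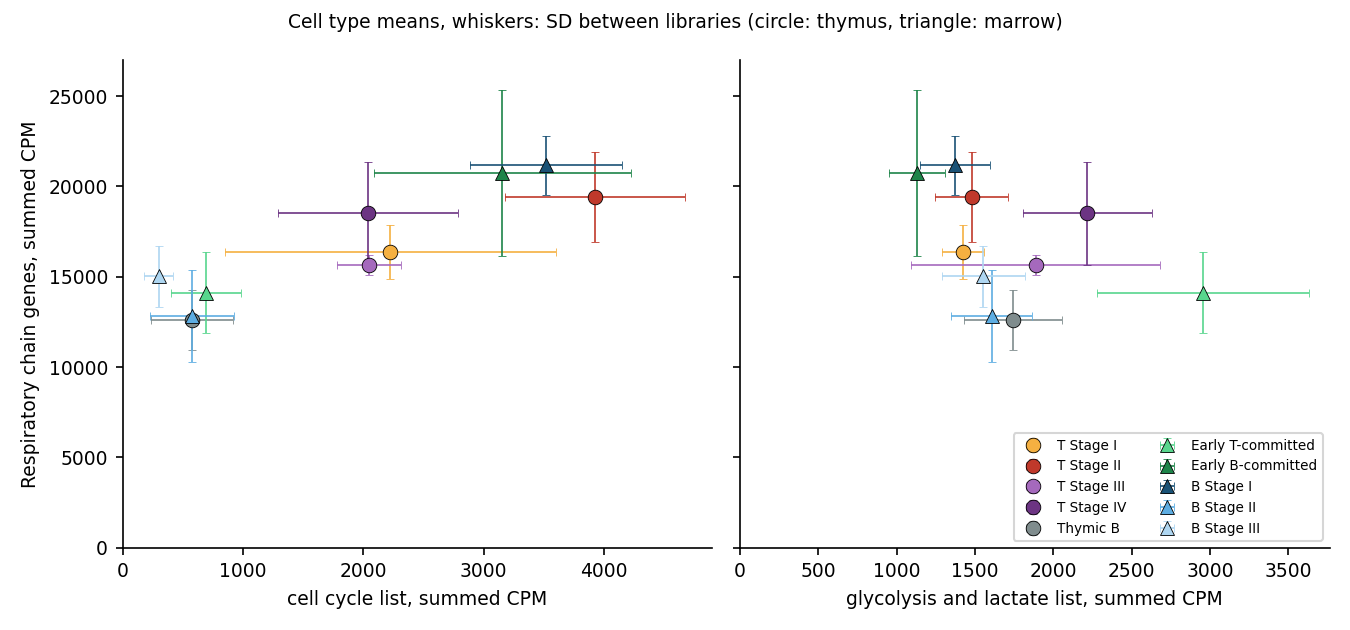
Cell type means of the summed CPM of the 104 genes (vertical axes) against the summed CPM of the cell cycle list (left) and of the glycolysis and lactate list (right), with whiskers of 1 SD over libraries. T Stage II (3926 CPM of the cell cycle list, 19416 of the chain) and B Stage I (3519 and 21168) lie at the upper right of the left panel, and early T-committed cells (2955 CPM of glycolysis) at the far right of the right panel.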

How the data were processed

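The deposited table held raw counts per gene (Ensembl identifiers with symbols for 13909 of 14423), made by the authors from 3′ reads. The submitters' processing notes name FastQC 0.11.8, STAR, featureCounts, DESeq2 1.38.3 and GRCz11, without their roles. The annotation release, strand setting and row filter are not given in the sources used here, and overlapping or antisense genes could not be told apart. The deposited normalised and variance-stabilised tables were not used. Every column matched a library, so the number of unmatched columns was 0. The gfp row counted toward library totals but was not tested. The spelling T State III in 1 label was read as T Stage III.

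From these counts CPM were computed on library totals, and edgeR 4.0.16 in R 4.3.3 fitted a quasi-likelihood model (TMM, robust dispersion) of 19 group means to all 53 libraries. Contrasts over lines gave each line equal weight, and p-values were adjusted by Benjamini-Hochberg over 14423 genes. Estimates average log2 levels of groups, so they need not match the ratio of mean CPM, as for NDUFA10 and DLD, and can be large where a group is near 0. A gene was called at an adjusted p under 0.05. SE is the estimate divided by the root of F. Correlations used log2 of CPM plus 1. Replicates were compared: in each of 50 pairs the members' counts differed beyond sampling noise (chi-square per degree of freedom 112 to 542), so all were kept as separate libraries. The members' correlation within a pair ran from 0.331 to 0.932, lowest in a pair of rag2-cd79b thymic B libraries. Replicate numbers are the labels' sample numbers.

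Genes were named by rule: the up to 5 called members with the largest change in each direction per comparison, the 2 with the smallest p where none was called, the highest mean of each complex, the forms of subunits with paralogues, and the 3 genes most like the sum. In the comparison of high-cycling with low-cycling cell types and in thymus, the remaining called genes were named after their values were seen. The values of 1 called gene are not reported here. The members and lists were chosen with earlier results of these data known. Alternatives were median-ratio size factors, library totals, DESeq2 1.42.0, limma 3.58.1 voom, a mean of at least 10 CPM, only the groups compared, no libraries under 5000 detected genes, and each library left out. A trended dispersion, contrasts within each line, and no libraries above 1000 CPM of the kidney tubule list were added after seeing the data. The contrasts within lines were taken from the fit of all 53 libraries. The fit was tested on simulated data.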

Additional observations from a re-analysis of the deposited data

Results flagged for a closer look

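Among 45 sets of libraries of 1 cell type and 1 complex, 3 held a library farther from the rest than the critical gap (0.625 of the range for 6 libraries), and chance gives about 1 in 20. For complex III in B Stage II, rag2-cd79b replicate 13 had a summed level of 1079.69 CPM. For complex IV in early T-committed cells, lck-cd79b replicate 23 had 6771.18 CPM. For cytochrome c in T Stage II, rag2-cd79b replicate 3 had 273.559 CPM, against a median of 137. Whether a comparison's difference itself differed between its lines was tested in 9 comparisons, and edgeR called 0 members in them. At an unadjusted p under 0.05 there were 1 to 16 members per comparison. A difference in level between lines was not tested.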

How the results depend on the processing

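Without 1 library the members' median log2 fold change ran from 0.56 to 0.71 (high-cycling against low-cycling), 0.43 to 0.73 (thymus), 0.56 to 0.78 (B Stage I against B Stage II), -0.53 to -0.22 (thymus against marrow) and 0 to 0.49 (B Stage I beside early B-committed cells). It changed sign for B Stage II against B Stage III (-0.28 to 0.10) and for the interaction (-0.25 to 0.13), and among rescalings for T Stages I and II against III and IV (0.09 to -0.03 with median-ratio factors) and for thymic B against early T-committed cells (0.15 to -0.05, and -0.12 on library totals). The number of called members varied. With T Stage II and B Stage I against thymic B and B Stage II (12 called) it was 23 on library totals, 21 with DESeq2, 40 with voom, 19 with only the groups compared, 2 and 6 within rag2-cd79a and rag2-cd79b, and 9 to 24 without 1 library. In thymus (8) the same settings gave 15, 16 and 30, then 13 with a mean of at least 10 CPM, 4 with a trended dispersion, 1 and 5 within the lines, and 6 to 19 without 1 library. For B Stage I against B Stage II (0) there were 1, 5, 5 and 7 (library totals, DESeq2, voom, only these groups). Early B-committed cells beside B Stage I (2) gave 7 with DESeq2, 1 with a mean of at least 10 CPM, 0 with a trended dispersion, 0 and 1 within the lines, 0 without kidney-rich libraries, and 0 to 2 without 1 library. For B Stage I against B Stage III (0) there were 3, 1 and 1 (DESeq2, voom, only these groups), and for B Stage II against B Stage III 5 with DESeq2. T Stage II against T Stage I gave 2 with DESeq2 and 1 with only these groups, T Stage III against T Stage IV 3 with DESeq2, and T Stages I and II against III and IV 4 with DESeq2 and 1 with voom (each 0 as reported). Thymus against marrow (6) gave 14 with DESeq2, 20 with voom, 2 within rag2-cd79a and 3 to 10 without 1 library. Thymic B against B Stage II (1) gave 13, 12, 3 and 2 (DESeq2, voom, mean of at least 10 CPM, trended dispersion), 0 and 2 within the lines, and 1 to 7 without 1 library. Thymic B against B Stage III (6) gave 14 with DESeq2, 12 with voom, 0 with only these groups, 3 without libraries under 5000 genes, 3 with a trended dispersion, 0 without kidney-rich libraries, and 1 to 9 without 1 library. T Stage II against B Stage I (5) gave 13 with only these groups, 3 with a trended dispersion, 3 and 0 within the lines, 2 without kidney-rich libraries and 4 to 5 without 1 library. Early T-committed cells beside T Stage III (2) gave 7 with DESeq2, 1 with only these groups, 1 with a trended dispersion and 0 to 2 without 1 library. Thymic B against early T-committed cells (4) gave 14 with DESeq2, 11 with voom, 0 within lck-cd79a and 3 to 9 without 1 library. The interaction (0) gave 11, 2, 1 and 2 (DESeq2, voom, only these groups, without libraries under 5000 genes) and 0 to 2 without 1 library. The cause of these shifts was not tested. For the named genes, each gene was counted once per comparison and setting. Whether it was called was as reported in 1290 entries, with a call lost in 112 and gained in 18. Over fits without 1 library it was as reported in 1895, lost in 122 and gained in 2. These entries include genes in comparisons where they were not called, in which no call could be lost, so they do not give the share of calls kept.

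Single libraries moved counts by over 1.5 times. Without thymic B replicate 6 of rag2-cd79b the counts were 24 for high-cycling against low-cycling cell types, 19 in thymus, 7 for thymic B against B Stage II and 2 for the interaction. Without thymic B replicate 5 thymus against marrow had 10 and thymic B against B Stage II had 2, and without replicate 2, 24, 42 or 43 thymus against marrow had 3. Thymic B against B Stage III had 1 without replicate 4, 5 or 17, early T-committed cells beside T Stage III 0 without 45, 46, 47 or 56, and thymic B against early T-committed cells 9 without 23. The interaction had 1 without replicate 3. Early B-committed cells beside B Stage I had 0 without replicate 7 and 1 without replicate 8, 10, 11, 36, 39 or 40.

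Summed levels moved by more than 1 SD in 6 of 30 rescalings: with TMM B Stage III was 16754 CPM, T Stage I 14827 and T Stage III 17253.5, and with median-ratio factors T Stage I was 14429, T Stage II 16884 and T Stage III 16237. The order of cell types changed: T Stage IV averaged above T Stage II with TMM (19501 against 17717 CPM) and with median-ratio factors (18392.5 against 16884). Early B-committed cells averaged above B Stage I with median-ratio factors (21165 against 20477 CPM). Early T-committed cells were lowest with TMM, at 12797 CPM. The median of all genes shifted by at most 0.18 (log2) between scalings, and by more than 0.1 in 8 comparisons. Called genes split differently: the share higher went from 27.7% to 45.6% for thymic B against B Stage II with median-ratio factors, from 28.4% to 48.3% (49.6% on library totals) against B Stage III, and from 59.6% to 47.9% (45.1%) against early T-committed cells. No paired analysis was made, because the labels used here give no pairing and each replicate number belongs to a single library. Whether populations of a line were sorted from the same fish is not stated, so a pairing may remain unmodelled.

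Depth of at least 7295854 counts limits levels below 0.411 CPM, and 9.0% of member values were 0, most often in thymic B (14.7 ± 9.47 of 104 genes per library).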
